A study of Mus musculus with 4 samples.

Results

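The genes described here are 10 receptors and bridging molecules by which phagocytes take up dying cells, 10 of the 15586 genes in the deposited expression table. They were taken by gene symbol: the receptor tyrosine kinases Mertk and Axl, their ligands Gas6 and Pros1, the bridging protein Mfge8, the integrin subunits Itgav and Itgb5, the scavenger receptors Cd36 and Msr1, and the inhibitory receptor Sirpa. All 10 were found, and all 10 averaged 1 FPKM or more across the 4 libraries, the filter used for testing (FPKM count fragments per length of transcript and per library size). RNA came from microglia, the resident immune phagocytes of the retina, of mice aged 2 months, sorted on the fluorescent protein EYFP at 200 cells per library. The TAK1 knockout group (TAK1_KO, 2 libraries) had tamoxifen injected into the peritoneum at 75 mg/kg on 5 days in a row, and the control group (CON, 2 libraries) had corn oil on the same schedule. Both groups carried a Cre recombinase that tamoxifen switches on, placed at 1 copy of the Cx3cr1 locus, together with a floxed TAK1 gene, so by the protocol the groups shared their alleles and differed in treatment. The genotype field of the knockout samples reads Cx3cr1CreER/+;Tak3fl/fl and that of the controls Cx3cr1CreER/+;Tak1fl/fl, while the treatment protocol gives the Tak1 allele for all. Cx3cr1 is also active in monocytes and other macrophages, so Cre and the sort can reach those cells, and knockout and tamoxifen cannot be told apart in this design. The series title names a mouse model of retinitis pigmentosa, and no label of these samples gives a disease allele. The labels do not say that libraries came from separate animals, so the spread between them may be technical.

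Dying cells expose phosphatidylserine, a lipid of the inner membrane leaflet. Gas6 and protein S (Pros1) bind this lipid and bridge it to the receptor kinases Mertk and Axl, and Mfge8 bridges it to the integrin formed by the αv (Itgav) and β5 (Itgb5) subunits. Cd36 and Msr1 bind oxidised lipids and other altered ligands directly, and Sirpa holds uptake back when it meets Cd47 on a healthy cell. In the retina these molecules are best known from the pigment epithelium, which clears shed photoreceptor outer segments daily through Mertk and the αvβ5 integrin, and microglia use them to take up dying photoreceptors.

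In Mertk, Axl, Pros1 and Itgb5 both knockout values exceeded both control values, though none of the 4 passed the test described below. The upstream sequences of these 4 genes are shown. Each is the 250 bases before the start used in the RefSeq promoter table, on the gene's strand in GRCm38.p6, and capitals mark the GC box GGGCGG or its reverse complement, with overlapping matches counted. They lie at chr2:128698665-128698914 (plus strand) for Mertk, chr7:25788734-25788983 (minus strand) for Axl, chr16:62854057-62854306 (plus strand) for Pros1 and chr16:33829415-33829664 (plus strand) for Itgb5. The Axl stretch precedes a start inside the span that RefSeq lists for the gene, so most of it lies within that span.
Mertk: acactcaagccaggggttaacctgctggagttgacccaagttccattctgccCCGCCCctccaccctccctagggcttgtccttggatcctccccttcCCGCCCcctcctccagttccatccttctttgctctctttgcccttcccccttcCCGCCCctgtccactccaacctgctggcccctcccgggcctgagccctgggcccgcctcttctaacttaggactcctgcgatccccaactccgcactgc
Axl: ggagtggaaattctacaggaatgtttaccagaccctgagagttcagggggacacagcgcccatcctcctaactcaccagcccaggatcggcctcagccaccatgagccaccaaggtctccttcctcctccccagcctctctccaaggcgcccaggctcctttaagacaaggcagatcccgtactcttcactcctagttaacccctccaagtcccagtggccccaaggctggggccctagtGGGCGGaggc
Pros1: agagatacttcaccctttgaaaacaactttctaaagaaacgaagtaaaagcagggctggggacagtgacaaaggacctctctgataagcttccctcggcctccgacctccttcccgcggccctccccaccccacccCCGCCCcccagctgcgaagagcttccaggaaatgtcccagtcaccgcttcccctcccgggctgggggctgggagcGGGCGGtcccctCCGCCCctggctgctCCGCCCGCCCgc
Itgb5: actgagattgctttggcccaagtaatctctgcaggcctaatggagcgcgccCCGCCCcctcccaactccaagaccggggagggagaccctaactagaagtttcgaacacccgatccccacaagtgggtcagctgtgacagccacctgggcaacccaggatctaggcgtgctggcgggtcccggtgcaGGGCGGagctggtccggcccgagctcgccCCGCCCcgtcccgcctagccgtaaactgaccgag

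Promoter entries were matched for 8 of the 10 genes, without Sirpa and Msr1. The GC box was in 7 of the 8, against 32.7% of all 32851 promoters of that length; the exception was Itgav. The Mertk, Axl, Pros1 and Itgb5 stretches hold 3, 1, 5 and 3 matches. G and C made up 60% to 65.2% of these 4 stretches and 43.2% (Cd36) to 65.2% of all 8, and the median promoter had 52.4%. The AP-1 letters TGANTCA were in 0 of the 8 and in 6.75% of all promoters, and the E-box CACGTG was in 0 of the 8 and in 6.02%. The PU.1 core GAGGAA was in 3 of the 8 (Axl, Itgav and Mfge8) and in 23.3%. All motifs were searched on both strands, and a match describes letters only.

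The targeted gene, Map3k7 (the TAK1 gene), was listed at 0.02 and 0.08 FPKM in the knockouts and 0.03 and 0 FPKM in the controls. It was near the floor of the table in both groups and gave no check of the labels. FPKM keep no read counts, so sequencing depth is unknown and counting error cannot be estimated. The knockouts had 6055 and 5628 genes at 1 FPKM or above and the controls had 4481 and 3777. In 32.1% of the 7823 tested genes 1 library held over 90% of the summed FPKM, and among the 10 genes this held for 2, Cd36 and Gas6. A value near 0 in 1 library is therefore given as listed and not read as absence. The sort was checked against 12 microglia markers, of which 11 or 12 read at least 1 FPKM in each library. Their summed level was 26494 and 20417 FPKM in the knockouts and 12533 and 14616 FPKM in the controls.

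Knockout libraries were compared with control libraries for transcripts of the uptake machinery. In 5 of the 10 genes, Mertk, Axl, Pros1, Itgb5 and Sirpa, both knockout values exceeded both control values, where this held for 27.8% of all tested genes. In 2 genes, Itgav and Msr1, both knockout values lay under both control values, against 11.4% of all tested genes. Gas6, Mfge8 and Cd36 overlapped between the groups. None of the 10 passed limma's moderated test on log2(FPKM + 1) after Benjamini-Hochberg adjustment over all tested genes: 9 had a limma adjusted p of 0.698 and Mfge8 had 0.937. None reached an unadjusted p under 0.05 either, the smallest being 0.0737 for Pros1. The same test called 0 genes higher (0% of those tested) and 0 lower (0%) across the table, and an unadjusted p under 0.05 was reached by 475 genes upward and 127 downward. With 2 libraries against 2, an exact two-sided permutation test of a single gene cannot go below p = 0.333.

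All differences below are knockout minus control on the log2(FPKM + 1) scale, which understates the change of low genes. The median difference was 1.82 over the 10 genes and 0.94 over all 7823 tested genes. That shift of all genes depended on level: genes averaging 1 to 20 FPKM had a median of 1.35, those from 20 to 100 FPKM 0.78 and those at or over 100 FPKM -0.11. After quantile normalization the median was 0.41 over the 10 genes and 0.19 over all tested genes. Only Axl and Pros1 of the 10 then exceeded both controls in both knockouts, against 19.9% of all tested genes, while Cd36, Itgav and Msr1 lay under both, against 18%.

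**Figure D1:**
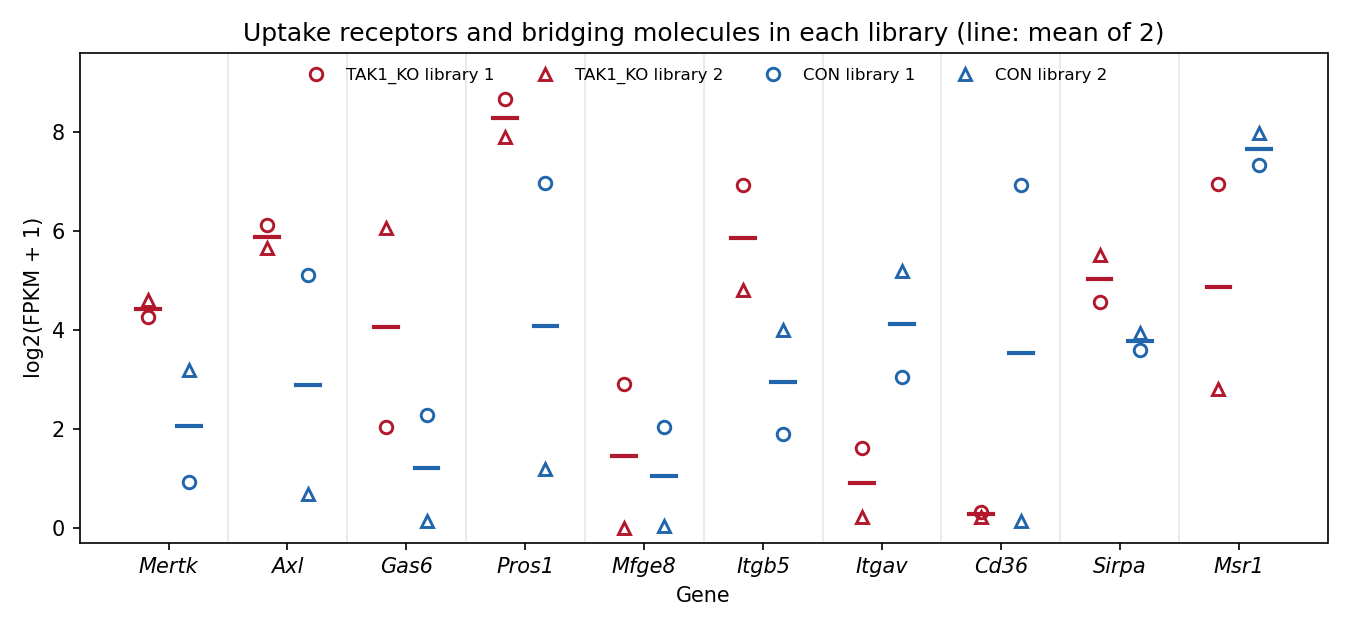
Level of each of the 10 genes as log2(FPKM + 1) in the 2 TAK1_KO libraries (red, left) and the 2 CON libraries (blue, right), with circles for library 1, triangles for library 2 and a line at the mean of each pair. Mertk, Axl, Pros1, Itgb5 and Sirpa have both red points above both blue ones, Itgav and Msr1 have both below, and Gas6, Mfge8 and Cd36 overlap.

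Mertk, the receptor kinase whose loss blocks outer segment uptake by the pigment epithelium in rats, lies at chromosome 2, 128698915 to 128803162. It read 18.1 and 23.4 FPKM in the knockouts and 0.89 and 8.1 FPKM in the controls. The knockouts were close to each other, while the controls differed from one another by more than the knockouts did. The difference was 2.38 ± 1.65 (SE, n = 2 each; 95% interval -1.66 to 6.42), and 23% of tested genes had a larger one. By rank within its library Mertk stood above 77.4% and 81% of all genes in the knockouts and above 70.9% and 81.4% in the controls, so the ranks overlapped where the FPKM did not.

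Axl, the receptor kinase of the same family that inflamed tissue macrophages express, lies at chromosome 7, 25756500 to 25788924. It read 68.7 and 49.2 FPKM in the knockouts and 33.4 and 0.6 FPKM in the controls. Both knockouts were higher than either control, but on the log2(FPKM + 1) scale control 1 was nearer to the knockouts than to control 2. The difference was 3.00 ± 1.85 (SE, n = 2 each), and it was 5.21 without control 1 and 0.78 without control 2. Tyro3, the remaining kinase of the family, read 0 and 0.02 FPKM in the knockouts and was listed at 0 in both controls. The ratio of Axl to Mertk, both per transcript length, was 3.80 and 2.10 in the knockouts and 37.5 and 0.0741 in the controls, so the control libraries disagreed on which receptor was the more abundant.

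Pros1 encodes protein S, a ligand of Mertk that also acts as an anticoagulant in plasma, and lies at chromosome 16, 62854307 to 62929346. It read 408 and 238 FPKM in the knockouts and 124 and 1.28 FPKM in the controls. It was the highest of the 10 genes in both knockouts, where it held 52.8% and 52.4% of their summed FPKM, whereas Msr1 was the highest in both controls. The difference was 4.21 ± 1.94 (SE, n = 2 each; 95% interval -0.55 to 8.97), the largest of the 10, and 5.3% of tested genes had a larger one. Its size depended on control 2: the difference was 1.32 without that library and 7.10 without control 1. After quantile normalization it was 3.24, with knockouts still above both controls.

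Gas6, the ligand that binds both Axl and Mertk, lies at chromosome 8, 13465374 to 13494535. It read 3.12 and 66.1 FPKM in the knockouts and 3.83 and 0.1 FPKM in the controls. Knockout 2 alone was high and held 90.4% of the summed FPKM, while knockout 1 lay between the controls. The difference was 2.85 ± 2.05 (SE, n = 2 each), and it was 0.84 without knockout 2 and 4.86 without knockout 1. Tmem255b, which overlaps Gas6 on the opposite strand, read at most 0.02 FPKM in any library. Pros1 exceeded Gas6 in every library, by 131 and 3.60 times in the knockouts and by 32.4 and 12.8 times in the controls, with no order by group.

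Both ligands need vitamin K-dependent carboxylation to bind phosphatidylserine. Vkorc1, which recycles the vitamin, read 399 and 298.1 FPKM in the knockouts and 298.2 and 118 FPKM in the controls. Ggcx, the carboxylase, read 0.64 and 0.21 FPKM in the knockouts and 7.97 and 0.42 FPKM in the controls, high in control 1 alone. Adam17, a protease that sheds the ectodomain of Mertk, read 19.4 and 66.2 FPKM in the knockouts and 5.12 and 0.72 FPKM in the controls (difference 3.51 ± 1.65, SE, n = 2 each; limma adjusted p = 0.698). Adam10, which sheds that of Axl, read 97.1 and 141 FPKM in the knockouts and 206 and 198 FPKM in the controls, and was likewise not called (limma adjusted p = 0.698). Of the 6 tested genes of this list of sheddases, their inhibitors and vitamin K enzymes, 0 were called. In it 2 genes exceeded both controls and 1 lay under both, against 27.8% and 11.4% of all tested genes.

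**Figure D2:**
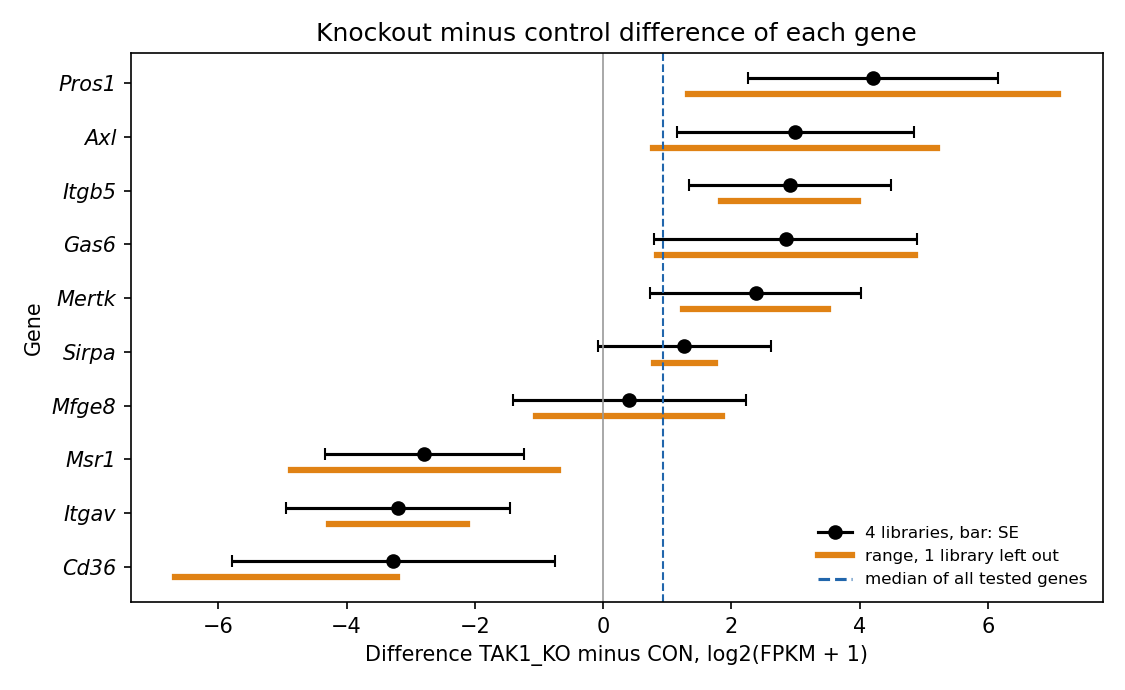
Difference between TAK1_KO and CON for each of the 10 genes on the log2(FPKM + 1) scale: the black point is the fit on 4 libraries with its SE, the orange bar spans the fits that leave out 1 library (3 such fits for Cd36, 4 for the others), and the dashed line is the median of all tested genes, 0.94. The differences run from -3.27 for Cd36 to 4.21 for Pros1, and the orange bar of Mfge8 crosses 0.

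Mfge8, the secreted bridge to αv integrins, lies at chromosome 7, 79133768 to 79149060. It had the lowest mean of the 10, at 6.47 and 0 FPKM in the knockouts and 3.13 and 0.03 FPKM in the controls. In each group 1 library was above 3 FPKM and the other at or near 0. The difference was 0.41 ± 1.82 (SE, n = 2 each; limma adjusted p = 0.937; 95% interval -4.04 to 4.85), below the median of all tested genes. Its sign turned after quantile normalization (-0.50), without knockout 1 (-1.04) and without control 2 (-0.60).

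The subunits of the αvβ5 receptor stood in opposite order. Itgb5 (chromosome 16, 33829665 to 33949338) read 121 and 26.9 FPKM in the knockouts and 2.74 and 15.1 FPKM in the controls. Knockout 1 was far above the rest, and knockout 2 exceeded control 2 by less than the controls differed from one another. Its difference was 2.91 ± 1.58 (SE, n = 2 each), and after quantile normalization it was 1.86 with the groups overlapping.

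Itgav (chromosome 2, 83722303 to 83806917), the αv subunit shared by several integrins, read 2.05 and 0.16 FPKM in the knockouts and 7.23 and 35.3 FPKM in the controls. Both knockouts were lower than either control, and 2.85% of tested genes had a smaller difference than its -3.20 ± 1.74 (SE, n = 2 each). With any 1 library left out the difference stayed below 0, from -4.27 to -2.13. Within a library the ratio of Itgb5 to Itgav was 59.2 and 168 in the knockouts and 0.379 and 0.427 in the controls. This ratio does not depend on scaling between libraries by a single factor, but knockout 2 rests on an Itgav value near 0, and the ratio was chosen after the values were seen.

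The other β subunits that pair with αv were also read, chosen after their values were seen. Itgb1 read 29.8 and 51.7 FPKM in the knockouts and 12.4 and 0.79 FPKM in the controls (difference 3.04 ± 1.67, SE, n = 2 each; limma adjusted p = 0.698). Itgb3 read 0.14 and 0.56 FPKM in the knockouts and 0.03 and 0.01 FPKM in the controls, and Itgb6 and Itgb8 read at most 0.08 FPKM in any library.

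**Figure D3:**
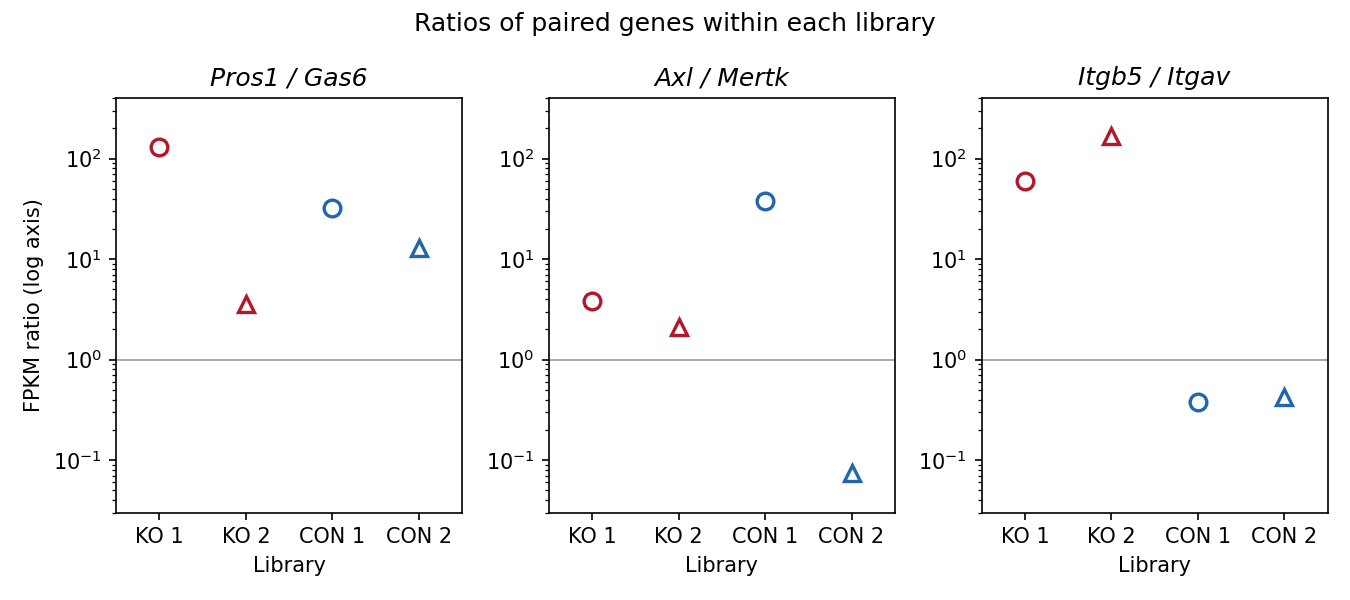
FPKM ratio, on a log axis, of Pros1 to Gas6, of Axl to Mertk and of Itgb5 to Itgav within each library, with TAK1_KO libraries in red and CON libraries in blue. The ratio of Itgb5 to Itgav is above 50 in both knockouts and below 0.5 in both controls, while the other ratios overlap between the groups.

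Cd36, a class B scavenger receptor for oxidised lipids, lies at chromosome 5, 17781690 to 17888959. It read 0.25 and 0.16 FPKM in the knockouts and 122 and 0.1 FPKM in the controls. Control 1 alone held 99.6% of the summed FPKM, and control 2 was as low as the knockouts. The difference of -3.27 ± 2.52 (SE, n = 2 each) therefore rested on 1 library, and without it Cd36 fell under the filter and had no value.

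Msr1, the class A scavenger receptor of macrophages, lies at chromosome 8, 39543232 to 39642750. It read 123 and 5.95 FPKM in the knockouts and 160 and 253 FPKM in the controls. Knockout 1 was just below control 1, and knockout 2 was far below the other libraries. The difference was -2.79 ± 1.55 (SE, n = 2 each), and it was -4.86 without knockout 1 and -0.71 without knockout 2.

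Monocytes can express both scavenger receptors. Of 8 tested monocyte markers, 0 were called and 5 overlapped. Of the rest 3 lay under both controls and 0 above, against 11.4% and 27.8% of all tested genes. The 10 in the table summed to 58.5 and 123 FPKM in the knockouts and 957 and 1354 FPKM in the controls. Ccr2, the monocyte chemokine receptor, read 1.81 and 0.59 FPKM in the knockouts and 316 and 151 FPKM in the controls, and Cd209a, which with Ccr2 made up most of the control sums, read 1.19 and 2.10 FPKM in the knockouts and 503 and 886 FPKM in the controls (limma adjusted p = 0.559 for both). Plac8 was high in control 2 alone (173 FPKM), and F13a1 went the other way, at 0.03 and 119 FPKM in the knockouts and 0.18 and 0.03 FPKM in the controls, so that it made up most of the knockout 2 sum. Perivascular macrophage markers summed to 189.8 and 840 FPKM in the knockouts and 2223 and 1752 FPKM in the controls. Of 8 tested, 2 lay under both controls and 0 above, against 11.4% and 27.8% of all tested genes. Their median difference was 0.44, and Siglec1 was listed at 0 throughout. Most of the control sums was Ms4a7, at 189 and 155 FPKM in the knockouts and 1614 and 1547 FPKM in the controls. Clec12a, the other marker under both controls, read 0.36 and 0.48 FPKM in the knockouts and 144 and 199 FPKM in the controls. Of the markers that follow, Mrc1, Cbr2 and Lyve1 were chosen after their values were seen. Pf4, Mrc1, Cbr2 and Lyve1 read 303, 97.2, 96.7 and 61.8 FPKM in knockout 2, the library where Gas6 was high, and at most 0.51 FPKM in knockout 1; in control 1, Pf4 and Mrc1 read 367 and 97.1 FPKM. The part of these cells in the Cd36, Msr1 and Gas6 values was not tested. In bulk RNA, fewer cells of a type and less RNA per cell cannot be told apart.

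Sirpa, the inhibitory receptor for Cd47, lies at chromosome 2, 129591042 to 129632228. It averaged 33.6 ± 15.5 FPKM in the knockouts and 12.7 ± 2.22 FPKM in the controls (SD, n = 2 each), from 22.7 and 44.5 FPKM in the knockouts and 11.1 and 14.3 FPKM in the controls. Sirpa was 1 of 4 genes among the 10 at 1 FPKM or more in every library, with Itgb5, Pros1 and Msr1. The difference was 1.27 ± 1.35 (SE, n = 2 each), which is 0.33 relative to the median of all tested genes. By rank within its library Sirpa stood above 79.2% and 86.2% of genes in the knockouts and above 79.7% and 83.5% in the controls, and after quantile normalization the difference was 0.22, or 0.02 relative to all genes.

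Sirpa has closely related genes that may share reads with it, so its values are uncertain; these genes were read after the Sirpa values were seen. Sirpb1a read 0.06 and 0.2 FPKM in the knockouts and 75.9 and 35.8 FPKM in the controls (limma adjusted p = 0.559), and Sirpb1b was listed at 0 in both knockouts and read 124 and 6.84 FPKM in the controls (limma adjusted p = 0.638). Sirpb1c read 59.1 and 0.83 FPKM in the knockouts and 13.6 and 289 FPKM in the controls, with overlap. How the authors' counting divided reads among them is not given in the sources used here.

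Cd47, the ligand of Sirpa and a marker of self on healthy cells, read 42.3 and 47.7 FPKM in the knockouts and 66.6 and 218 FPKM in the controls (limma adjusted p = 0.698). Ptpn6, the phosphatase SHP-1 that Sirpa recruits, read 78.5 and 54.5 FPKM in the knockouts and 15.8 and 24.7 FPKM in the controls (limma adjusted p = 0.698). Of 11 tested genes of the list of signals and receptors that restrain uptake, 0 were called, with a median difference of 0.28. In this list 4 genes exceeded both controls and 3 lay under both, against 27.8% and 11.4% of all tested genes. Among those under both controls was Lilrb4a, an inhibitory receptor of myeloid cells, at 133 and 24.5 FPKM in the knockouts and 687 and 382 FPKM in the controls (difference -3.14 ± 1.04, SE, n = 2 each; unadjusted p = 0.0232, limma adjusted p = 0.57). B2m, the MHC class I light chain, was another, at 7445 ± 367 FPKM in the knockouts and 11987 ± 1084 FPKM in the controls (SD, n = 2 each; limma adjusted p = 0.559). Siglech, a sialic acid receptor of microglia, read 276 and 368 FPKM in the knockouts and 39.8 and 163 FPKM in the controls, and Cd200, the ligand of an inhibitory receptor, read 0.42 and 55.3 FPKM in the knockouts and 0.06 and 0.03 FPKM in the controls; neither was called (limma adjusted p = 0.698).

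By the mean of 2 libraries, the order in the knockouts was Pros1, Itgb5, Msr1, Axl, Gas6, Sirpa, Mertk, Mfge8, Itgav and Cd36, and in the controls Msr1, Pros1, Cd36, Itgav, Axl, Sirpa, Itgb5, Mertk, Gas6 and Mfge8. Pros1 averaged 323 ± 120 FPKM in the knockouts, above Itgb5 at 74.1 ± 66.8 FPKM there, and Msr1 averaged 206 ± 65.9 FPKM in the controls, above Pros1 at 62.7 ± 86.9 FPKM there (SD, n = 2 each). In both cases the library values of the first gene exceeded those of the next, whereas Itgb5 and Msr1 in the knockouts, and Pros1 and Cd36 in the controls, overlapped. The 10 genes summed to 774 and 454 FPKM in the knockouts and 468 and 328 FPKM in the controls, so knockout 2 and control 1 overlapped in the sum. Values under 1 FPKM numbered 1 and 3 of 10 in the knockouts and 1 and 4 of 10 in the controls.

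Other uptake receptors were read from a wider list. Of 17 tested, 0 were called, 4 exceeded both controls and 2 lay under both. These counts were near the shares of all tested genes, 27.8% and 11.4%. The median difference was 0.48 against 0.94 for all tested genes. Havcr2 (TIM-3), which binds phosphatidylserine, read 93.3 and 93.4 FPKM in the knockouts and 0.24 and 33 FPKM in the controls (limma adjusted p = 0.698). Cd68, a lysosomal scavenger-like glycoprotein, read 1057 and 917 FPKM in the knockouts and 851 and 363 FPKM in the controls. Cd300lf and Cd300ld, receptors of the myeloid CD300 family, lay under both controls. Cd300lf read 10.6 and 0.35 FPKM in the knockouts and 75.4 and 65 FPKM in the controls (difference -4.16 ± 1.65, SE, n = 2 each; unadjusted p = 0.0451, limma adjusted p = 0.639), and Cd300ld read 13 and 0.09 FPKM in the knockouts and 112 and 29.4 FPKM in the controls.

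Among other bridging molecules the complement C1q subunits stood higher in the knockouts, without passing the test. C1qc read 4270 and 2317 FPKM in the knockouts and 1135 and 730.8 FPKM in the controls (difference 1.79 ± 0.42, SE, n = 2 each; unadjusted p = 0.00559, limma adjusted p = 0.559). C1qb read 7990 and 3146 FPKM in the knockouts and 1897 and 835 FPKM in the controls (difference 1.99 ± 0.57; unadjusted p = 0.0128, limma adjusted p = 0.559). C1qa overlapped, at 908 and 173 FPKM in the knockouts and 187 and 95.3 FPKM in the controls. Vtn, vitronectin, an αv integrin ligand and also a pericyte marker, read 96.1 and 29.3 FPKM in the knockouts and 0.12 and 0.16 FPKM in the controls (limma adjusted p = 0.559). Anxa5, annexin A5, a phosphatidylserine-binding protein, read 332 and 194 FPKM in the knockouts and 473 and 556 FPKM in the controls (limma adjusted p = 0.698). Of the 12 tested genes of this list, 0 were called, 4 exceeded both controls and 2 lay under both, with a median difference of 0.44. The shares of all tested genes were 27.8% above and 11.4% under.

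Of 19 tested genes of the engulfment machinery downstream of the receptors, 0 were called, 5 exceeded both controls and 2 lay under both. These counts were near the shares of all tested genes, 27.8% and 11.4%. The list median of 0.27 was below that of all tested genes. Elmo1, Rhog, Abi1 and Cdc42 are named because they had the smallest unadjusted p of the list. Elmo1, a subunit of the exchange factor that activates Rac at the phagocytic cup, read 44.6 and 60.5 FPKM in the knockouts and 0.04 and 5.55 FPKM in the controls (difference 4.34 ± 1.66, SE, n = 2 each; unadjusted p = 0.0398, limma adjusted p = 0.619). Rhog, the small GTPase that recruits Elmo, read 32 and 89.3 FPKM in the knockouts and 0.97 and 0.12 FPKM in the controls (unadjusted p = 0.0172, limma adjusted p = 0.561). Abi1, of the WAVE actin complex, read 87.2 and 198 FPKM in the knockouts and 5.09 and 0.52 FPKM in the controls (unadjusted p = 0.0108, limma adjusted p = 0.559), and the GTPase gene Cdc42 averaged 914 ± 1.70 FPKM in the knockouts and 456 ± 74.5 FPKM in the controls (SD, n = 2 each; limma adjusted p = 0.68). In the other direction Rac2, a Rac GTPase of blood cells, read 0.97 and 4.46 FPKM in the knockouts and 24 and 48.2 FPKM in the controls (difference -3.42 ± 1.57, SE, n = 2 each; limma adjusted p = 0.698).

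Phagosome maturation and LC3 genes had 19 tested members, of which 0 were called, 5 exceeded both controls and 2 lay under both. These counts were near the shares of all tested genes, 27.8% and 11.4%, and the list median was 0.95. Map1lc3b, the LC3 protein of LC3-associated phagocytosis, averaged 615 ± 65.4 FPKM in the knockouts and 317 ± 41.5 FPKM in the controls, and Cyba, a subunit of the phagosomal NADPH oxidase, averaged 1229 ± 198 FPKM in the knockouts and 690 ± 241 FPKM in the controls (SD, n = 2 each; limma adjusted p = 0.698 for both). Rab7 and Gabarap overlapped. Of 12 tested lipid sensing and efflux genes 0 were called, with a median of -0.18. Among them 3 exceeded both controls and 1 lay under both, against 27.8% and 11.4% of all tested genes. Npc1, the lysosomal cholesterol exporter, read 11.5 and 7.23 FPKM in the knockouts and 0.02 and 0.05 FPKM in the controls, Abca1, which passes cholesterol out of the cell, read 17.4 and 1.77 FPKM in the knockouts and 0.02 and 0.04 FPKM in the controls, and Soat1, which stores cholesterol as esters, read 93.4 and 18.5 FPKM in the knockouts and 17.4 and 5.46 FPKM in the controls (limma adjusted p = 0.698 for each). Abcg1, another cholesterol exporter, lay under both controls at 43.7 and 50.5 FPKM in the knockouts and 55.7 and 266 FPKM in the controls. Of 7 tested genes that expose or flip phosphatidylserine, 0 were called. Here 0 genes exceeded both controls and 1 lay under both, against 27.8% and 11.4% of all tested genes. Plscr1, Atp8a2 and Ano6 each owed most of their mean to a single library.

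**Figure D4:**
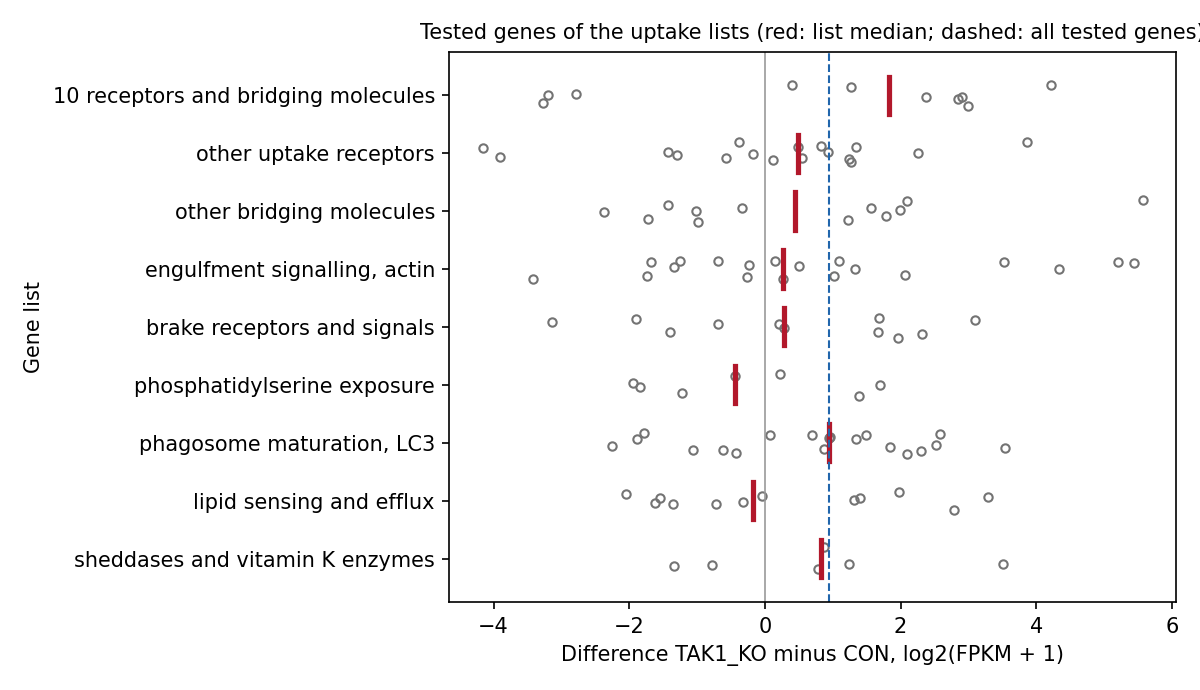
Difference between TAK1_KO and CON on the log2(FPKM + 1) scale for each tested gene (grey) of the 10 receptors and bridging molecules and of 8 further uptake lists, with the list median in red and the median of all tested genes, 0.94, dashed. The 10 genes have a median of 1.82, and those of the other lists run from -0.45 for phosphatidylserine exposure to 0.95 for phagosome maturation; list medians were not tested, and that of the 10 genes was 0.41 after quantile normalization.

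Cells other than microglia also express several of the 10 genes, and their markers were read in the same libraries. Rod photoreceptor markers stood higher in the knockouts without passing the test, with 0 of 16 called. Of the 16, 13 lay above both controls and 0 below, against 27.8% and 11.4% of all tested genes. Rod markers summed to 7270 and 11931 FPKM in the knockouts and 2986 and 4012 FPKM in the controls. Pigment epithelium uses Mertk, Itgb5 and Mfge8. Its 8 markers in the table summed to 56.9 and 0.44 FPKM in the knockouts and 23.0 and 0.15 FPKM in the controls, most of it Rlbp1, which Müller glia share. Of these markers 6 read at most 0.5 FPKM everywhere, and Rpe65 read 9.39 FPKM in control 1 and was listed at 0 in the other libraries. Endothelial markers summed to 15.9 and 100.1 FPKM in the knockouts and 0.21 and 0.6 FPKM in the controls, with Pecam1 at or under 0.02 FPKM everywhere. Flt1 read 15.9 and 8.05 FPKM in the knockouts and 0 and 0.05 FPKM in the controls, and Ly6c1 read 91.7 FPKM in knockout 2 and at most 0.15 FPKM elsewhere. Pericyte markers summed to 156 and 29.4 FPKM in the knockouts and 0.21 and 1.93 FPKM in the controls, in the knockouts from Vtn and, in knockout 1, Rgs5, with Cspg4 listed at 0 throughout. Müller glia and astrocyte markers summed to 10247 and 2345 FPKM in the knockouts and 5267 and 5401 FPKM in the controls, most of it Apoe, which microglia also express, and Gfap and Kcnj10 read at most 0.02 FPKM. Glul, glutamine synthetase of Müller glia, read 774 and 599 FPKM in the knockouts and 84.6 and 318 FPKM in the controls (limma adjusted p = 0.636), while Vim, vimentin, read 1.78 and 5.80 FPKM in the knockouts and 87.8 and 29.1 FPKM in the controls. These were the 1 marker above and the 1 under both controls of 10 tested, against 27.8% and 11.4% of all tested genes. The part of any of these cells in the values of the 10 genes was not tested.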

How the data were processed

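Expression was deposited by the authors as FPKM, 1 column per library with 2 decimals, per the file headers. The submitters' processing notes name mm10 as the build; the sources used here do not name the aligner, quantifier or annotation. Reverse transcription followed SMART-SeqII with PCR amplification, per the labels' protocols, so PCR copies cannot be told from molecules. Columns were matched to samples by title. Coordinates and promoters came from RefSeq (GRCm38.p6), where 15470 of 15586 gene IDs matched; overlapping genes came from GENCODE M21.

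Genes averaging 1 FPKM or more (7823) were tested as log2(FPKM + 1) with limma 3.58.1 (R 4.3.3), using a trended prior variance with 3.99 degrees of freedom beside 2 residual ones, Benjamini-Hochberg adjustment and a threshold of 0.05. The code was tested on simulated data. Figures were drawn with matplotlib 3.10.9. There were 14 alternative settings. Members and 16 further lists were chosen with earlier results of these data known. The rule named all members, from each list up to 4 tested genes by smallest p, and from markers of other cells up to 3 by highest mean. Other genes were chosen after their values were seen. Not every gene under the rule is reported here.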

Additional observations from a re-analysis of the deposited data

How the results depend on the processing

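Over 14 alternatives giving 138 values for the 10 genes, none was called (limma adjusted p 0.121 to 0.981) and 135 kept their direction. Changing the filter, leaving the prior variance untrended or adding the replicate number as a block cannot change the difference, so those values could not turn. The 3 that turned were all of Mfge8: -0.50 after quantile normalization, -1.04 without knockout 1 and -0.60 without control 2. With 1 library left out, the Mfge8 difference ranged from -1.04 to 1.86. The number of the 10 genes above both controls was 2 after quantile normalization, against 5, and 5 to 6 with 1 library left out, while the number below both was 3 after quantile normalization and 2 to 3 with 1 library left out. The share of all tested genes was 19.9% above and 18% below after quantile normalization, and 42.1% to 45.6% above and 21.3% to 27.3% below with 1 library left out. Over all genes, 0 were called higher and 0 lower in the fit on 4 libraries, 0 to 1306 higher and 0 to 5 lower with 1 library left out (697 higher and 4 lower without knockout 1, 1306 and 5 without knockout 2, 0 and 0 without either control). There the lone library of an arm is assumed to vary like the others. With the replicate number of the titles as a block, 15 genes were called higher and 20 lower, and none of the 10 (limma adjusted p 0.23 to 0.965). The labels do not say that same-numbered libraries were paired. Deviations of these from their group means correlated at r = 0.0166 across 7823 genes. Libraries correlated with one another at only r = 0.51 to 0.59, so this value cannot decide whether they were paired. The block fit has 1 residual degree of freedom. The cause of these shifts was not tested. Without read counts, what depth limits cannot be stated, and 9 of the 40 values of these genes were under 1 FPKM.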
